A study of Mus musculus with 4 samples.

Results

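The major histocompatibility complex (MHC) class I antigen presentation pathway was followed through 10 genes in mouse neural progenitor cells (NPCs) with and without knockdown of Srf, on a soft and a stiff matrix. The genes were taken by name, 2 classical heavy chains (H2-K1, H2-D1), the light chain B2m, the peptide transporter (Tap1, Tap2), tapasin (Tapbp), 3 immunoproteasome subunits (Psmb8, Psmb9, Psmb10) and the transactivator Nlrc5, out of 21862 genes with a value in every library. All 10 were measured, and 8 of them passed an FPKM of 2 (fragments divided by transcript length and by the mapped fragments of the library) in all 4 libraries, as did 10489 of all genes. Psmb8 and Nlrc5 did not.

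The study asked how SRF, a serum response factor that drives cytoskeletal genes together with its actin-regulated coactivators, and the stiffness of the matrix shape gene expression in cells that carry reprogramming factors. Poly(A) RNA was sequenced from the N31 NPC line, differentiated from induced pluripotent stem cells, which carries doxycycline-inducible Oct4, Klf4, c-Myc and Sox2 and a blasticidin resistance gene under Oct4 control. The 4 libraries were control NPCs on a 0.5 kPa matrix, control NPCs on a 12 kPa matrix, and NPCs with a retroviral short hairpin against Srf (shSrf#1, called shSrf) on each of the same matrices. All were kept in NPC medium without EGF and bFGF on type I collagen-coated matrices. Per the methods of the study, virus-infected cells went through puromycin selection, except in assays of reprogramming efficiency. The sources used here do not state whether the control cells carried a control vector. Infection and selection may therefore also differ between control and shSrf NPCs. Each condition was 1 library, from 1 line and 1 hairpin, so the spread between replicates is unknown and no difference below has a test. Because the RNA came from whole cultures, fewer cells of a type and less RNA per cell cannot be told apart.

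Srf itself was at 34.4 FPKM in control NPCs and 16.2 in shSrf NPCs at 0.5 kPa, and at 35.6 and 17.4 at 12 kPa (log2 ratio −1.09 and −1.03). The estimated depth was between 24100000 and 62300000 reads per library and was higher in both shSrf libraries than in both control libraries. Of 12 NPC markers, 6 or 7 were above 2 FPKM in each library, while Sox1, Hes5 and Olig2 were listed at 0 in all 4, so that the label rests on a part of the set. Nes was at 51.6 and 36.1 FPKM in control NPCs and at 16.4 and 15.5 in shSrf NPCs. Sox2, which is also a factor of the inducible cassette, was at 4.29 and 5.49 against 19.1 and 20.4. Outside the cassette, Pax6 (log2 ratio 1.31 and 0.97), Vim (0.49 and 0.69) and Msi1 (1.59 and 2.12) were also higher after knockdown. Prom1 was lower (−2.09 and −2.01), as was Nes, and Sox9 was within 1.1-fold on both matrices. Msi1 was under 2 FPKM in control NPCs, as was Prom1 in shSrf NPCs at 12 kPa. The sum of the 12 was 1776 and 1548 FPKM in control NPCs and 2440 and 2457 in shSrf NPCs. Without Vim it was 79.7 and 66.9 against 59.4 and 61.2.

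MHC class I molecules show fragments of a cell's own proteins on its surface. The proteasome cuts proteins into peptides, a process that the immunoproteasome subunits modify by taking the place of the constitutive catalytic subunits, TAP carries the peptides into the endoplasmic reticulum, and tapasin and its partners help to load them onto a heavy chain paired with β2-microglobulin. Interferon raises the whole set through IRF and other factors, and NLRC5 acts on class I promoters through the RFX and CREB proteins on the X box, while neural cells are known for low class I expression at rest.

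Most of these genes lie in the MHC on chromosome 17. In mm10, H2-K1 spans chr17:33996012-34000619, H2-D1 chr17:35263094-35267497 and Tapbp chr17:33919478-33929290. Psmb9 (chr17:34182030-34187330), Tap1 (chr17:34187556-34197225), Psmb8 (chr17:34198195-34201454) and Tap2 (chr17:34204479-34216321) form a cluster of 34292 bases, in which the starts of Psmb9 and Tap1 are 225 bases apart on opposite strands. B2m lies at chr2:122147687-122153082, Psmb10 at chr8:105935728-105938392 and Nlrc5 at chr8:94434335-94527272. B2m overlaps Patl2, which had at most 0.0371 FPKM in any library.

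Start-site windows of 250 bases upstream to 50 downstream, from RefSeq on GRCm38.p6, were found for 8 of the 10 genes. They are shown for both heavy chains, which differed in their response, for the light chain and for Tap1. Capitals mark matches on either strand to an interferon element (GAAANNGAA or GAANNGAAA), the NF-κB consensus, and the X2 core TGACG. The motifs were chosen with these windows in view.
H2-K1 (chr17:34000298-34000597, minus strand): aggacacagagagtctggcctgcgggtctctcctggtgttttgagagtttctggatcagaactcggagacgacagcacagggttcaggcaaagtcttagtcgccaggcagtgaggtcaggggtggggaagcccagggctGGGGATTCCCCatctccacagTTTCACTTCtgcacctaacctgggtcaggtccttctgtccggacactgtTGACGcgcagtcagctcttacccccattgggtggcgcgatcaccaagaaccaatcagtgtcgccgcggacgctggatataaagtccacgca
H2-D1 (chr17:35262844-35263143, plus strand): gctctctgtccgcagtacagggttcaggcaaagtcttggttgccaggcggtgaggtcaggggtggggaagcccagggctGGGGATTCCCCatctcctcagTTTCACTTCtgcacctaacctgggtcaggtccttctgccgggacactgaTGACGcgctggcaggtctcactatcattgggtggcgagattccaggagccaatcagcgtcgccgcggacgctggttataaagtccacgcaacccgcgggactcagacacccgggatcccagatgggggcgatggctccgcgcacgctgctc
B2m (chr2:122147437-122147736, plus strand): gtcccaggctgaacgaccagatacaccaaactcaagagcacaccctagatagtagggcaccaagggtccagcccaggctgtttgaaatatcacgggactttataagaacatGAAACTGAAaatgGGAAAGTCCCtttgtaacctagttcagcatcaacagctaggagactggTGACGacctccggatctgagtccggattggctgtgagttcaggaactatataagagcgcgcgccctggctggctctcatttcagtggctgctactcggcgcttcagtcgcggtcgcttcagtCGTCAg
Tap1 (chr17:34187306-34187605, plus strand): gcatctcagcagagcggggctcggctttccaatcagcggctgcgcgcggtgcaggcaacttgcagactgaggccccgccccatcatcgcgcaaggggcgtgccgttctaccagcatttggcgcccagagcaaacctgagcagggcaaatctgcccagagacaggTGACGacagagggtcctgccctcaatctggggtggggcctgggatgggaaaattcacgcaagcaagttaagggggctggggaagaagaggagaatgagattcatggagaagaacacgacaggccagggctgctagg

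The H2-K1 and H2-D1 windows had 211 identical bases of 239 aligned (88.3%). The H2-K1 window is set on a start at 34000347, 272 bases inside the gene span given above, while the other 7 windows are set on the end of their span, so positions in H2-K1 and H2-D1 are not counted from matching starts. In H2-K1 an interferon element lay from −90 to −82 relative to that start, beside an NF-κB match from −111 to −101, and in H2-D1 the same pair of motifs lay from −150 to −142 and from −171 to −161. In B2m the interferon element lay from −139 to −131. Of the 8 windows, 3 held an interferon element in either form (14.8% of 32851 windows), 3 an NF-κB match (4.51%), and 5 an X2 core (20.8%). The X2 cores of Tap1 and Psmb9, whose windows share 275 bases, are the same site (chr17:34187470-34187474). None held a CArG box, the SRF motif, which 1.63% of all windows hold. A match describes letters and not a bound site, and the lack of a match draws nothing about a factor.

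The levels spanned a wide range. In control NPCs at 0.5 kPa, B2m (429.7 FPKM), Tapbp (382.9) and Psmb10 (194.4) were the highest, H2-D1 (28.0), H2-K1 (18.1) and Tap2 (17.4) lay between, and Psmb9 (4.09), Tap1 (3.49), Psmb8 (0.837) and Nlrc5 (0.309) were low. With no replicate spread, close neighbours such as H2-K1 and Tap2, or Psmb9 and Tap1, cannot be ordered. The light chain was thus far above the classical heavy chains, at 9.33 and 9.30 times their sum in control NPCs and 7.43 and 7.19 times in shSrf NPCs.

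**Figure D1:**
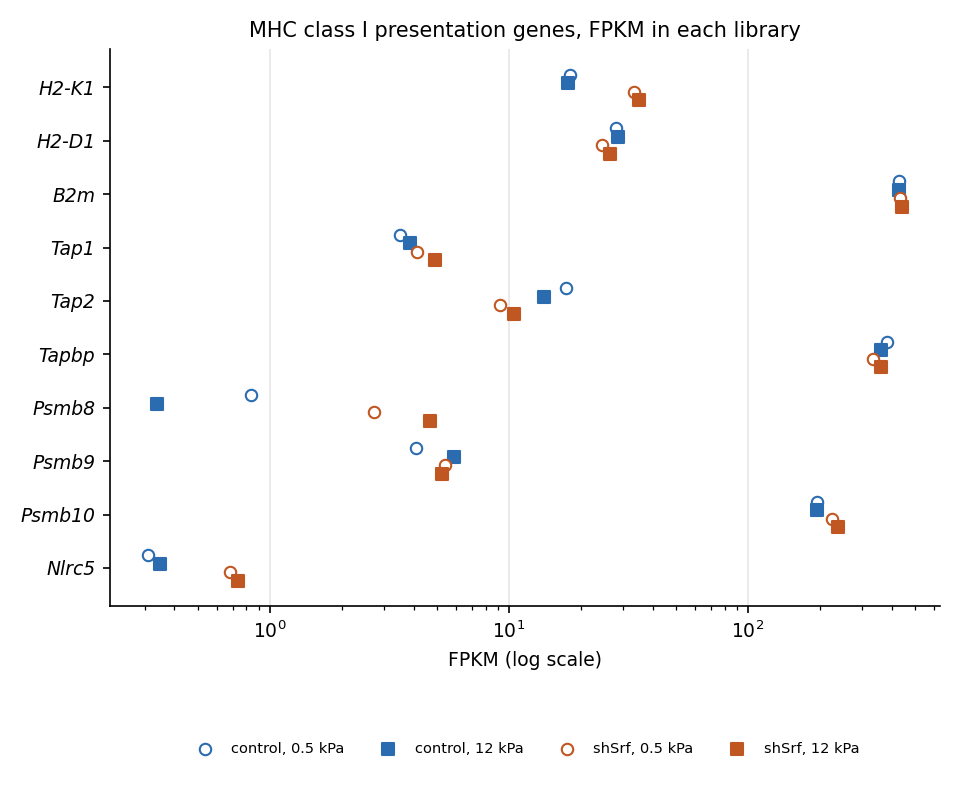
FPKM (log axis) of each of the 10 class I presentation genes in the 4 libraries, 1 point per library. B2m, Tapbp and Psmb10 lie highest in every library. H2-K1, Tap1, Psmb8, Psmb10 and Nlrc5 lie higher in both shSrf libraries than in both control libraries, as does B2m by a small margin. H2-D1, Tap2 and Tapbp lie lower in both.

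To read the pathway after partial knockdown of Srf, each shSrf library was set against the control on the same matrix. A gene was counted when its FPKM ratio passed 1.1-fold, the threshold of the study. At 0.5 kPa, 4 of the 8 genes above the minimum were higher (H2-K1, Tap1, Psmb9, Psmb10), where 37.4% of all genes were, and 3 were lower (H2-D1, Tap2, Tapbp), where 35.7% of all genes were. At 12 kPa, 3 were higher (H2-K1, Tap1, Psmb10; 37.6% of all genes) and 2 were lower (Tap2, Psmb9; 35.9%). On both matrices, 3 were higher (30.3%) and 1 was lower (28.8%), so the genes did not move one way as a group, and their counts lay near those of all genes. The median log2 ratio of the 8 was 0.10 at 0.5 kPa and 0.01 at 12 kPa, against 0.01 over all genes at each stiffness. Past 1.5-fold on both matrices there was 1 gene, H2-K1, where 6.63% of all genes were.

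**Figure D2:**
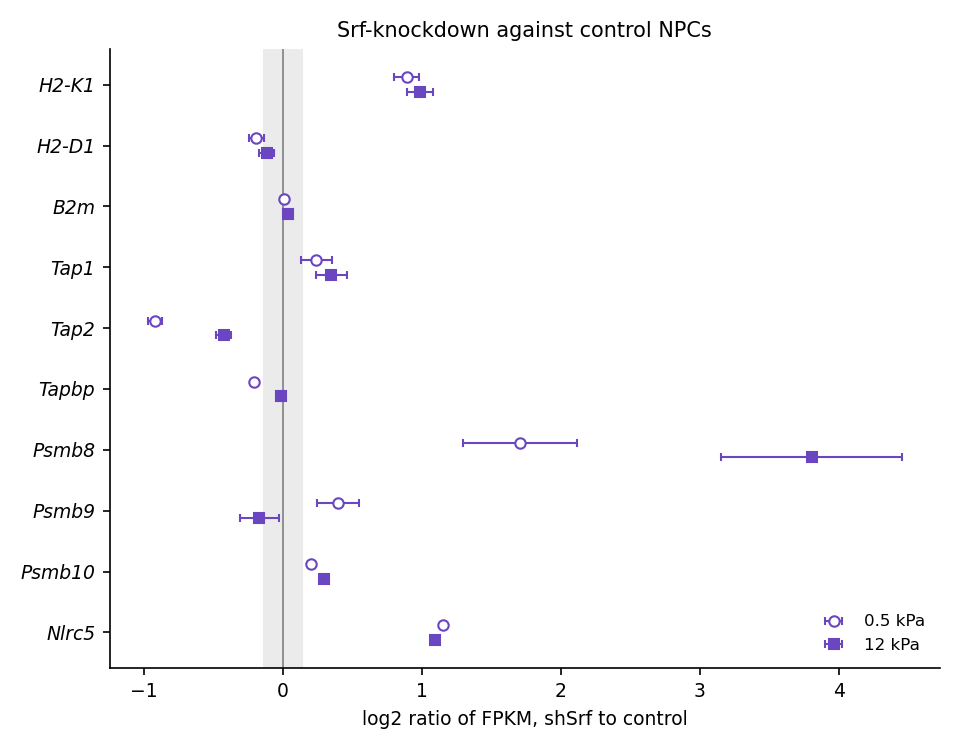
Log2 ratio of FPKM, shSrf over control, for each gene at 0.5 and 12 kPa. Bars show ±1 SE from counting error only (none for Nlrc5), and the grey band marks ratios within 1.1-fold. H2-K1, Tap1, Psmb8, Psmb10 and Nlrc5 lie above the band at each stiffness and Tap2 lies below it.

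The 2 classical heavy chains parted in their response. H2-K1 was at 18.1 and 17.6 FPKM in control NPCs at 0.5 and 12 kPa and at 33.6 and 34.9 in shSrf NPCs. Both shSrf libraries were above both control libraries, by a log2 ratio of 0.89 (counting SE 0.089) at 0.5 kPa and 0.99 (0.093) at 12 kPa, or 1.85-fold and 1.98-fold. H2-D1 was at 28.0 and 28.6 FPKM in control NPCs and at 24.5 and 26.4 in shSrf NPCs. Its log2 ratio was −0.19 (0.054) at 0.5 kPa, past 1.1-fold, and −0.12 (0.053) at 12 kPa, within it, where the value centred on genes of like GC content, in 50 bins, was −0.35.

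The share of H2-K1 in the summed FPKM of the pair was 39.3% and 38.1% in control NPCs and 57.8% and 56.9% in shSrf NPCs. By FPKM, H2-D1 was above H2-K1 in both control libraries and below it in both shSrf libraries. With no replicate spread, this order of the 2 genes is not established. Their summed level was 1.26-fold and 1.33-fold higher after knockdown. Of the 50-base stretches of H2-K1 transcripts, 8.87% also occur in transcripts of other genes (7.01% in H2-D1), and of those of H2-D1 14.3%, so the level of each is uncertain by the reads of these stretches. The authors removed reads with a mapping quality under 20, and the stretches of each gene are shared with several others (16 for H2-K1 and 37 for H2-D1).

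Class I-like heavy chains, which have narrower ligands or other tasks, were followed in a list of 19 genes, of which 16 had a value and 6 were above the minimum. On both matrices, 5 of these 6 were higher after knockdown and none was lower (median log2 ratio 0.41 and 0.31, against 0.01 over all genes), where 30.3% of all genes were higher and 28.8% lower. H2-Q4, a Qa-region heavy chain, was at 2.18 and 2.47 FPKM in control NPCs and at 5.41 and 6.24 in shSrf NPCs (log2 ratio 1.31 and 1.34). H2-T23, which encodes Qa-1, was at 1.61 and 2.72 FPKM in control NPCs and at 5.08 and 6.80 in shSrf NPCs, a log2 ratio of 1.66 and 1.32, but it was under the minimum in 1 control library. Both genes separated the control from the knockdown libraries as H2-K1 did. H2-Q6 had under 3 estimated reads in 3 of the 4 libraries, so its ratio is not given. Of H2-Q4 transcripts, 17.3% of the 50-base stretches are shared with other genes, and of H2-T23 14.8%.

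**Figure D3:**
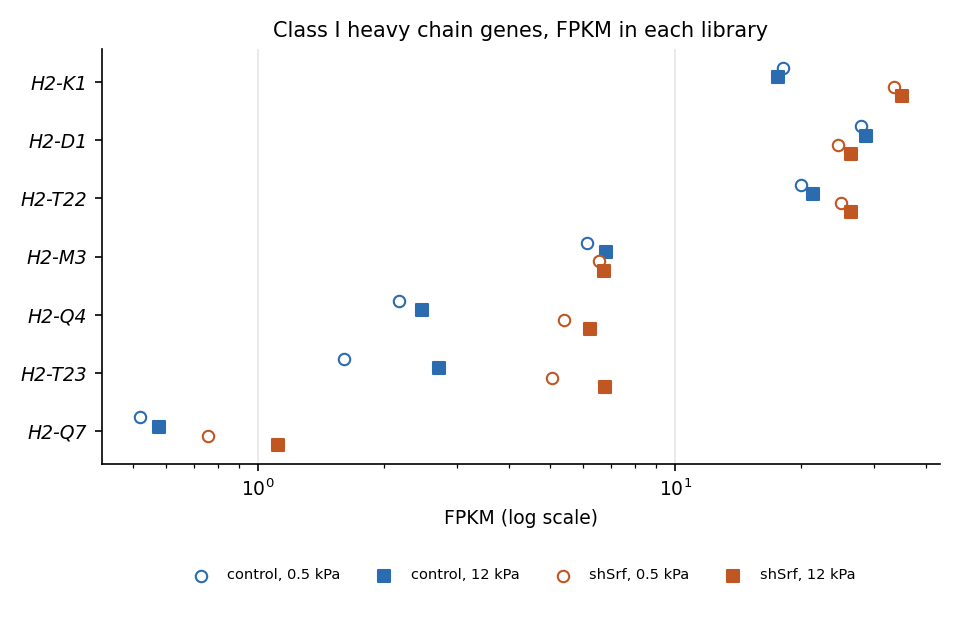
FPKM (log axis) of the classical heavy chains H2-K1 and H2-D1 and of 5 class I-like heavy chains in the 4 libraries, 1 point per library. H2-K1, H2-T22, H2-Q4, H2-T23 and H2-Q7 are higher in both shSrf libraries, H2-M3 overlaps between the groups, and H2-D1 is slightly lower in them. H2-Q7 is under 2 FPKM in every library.

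B2m, the light chain that all these heavy chains need for a stable fold, was at 429.7 and 430.4 FPKM in control NPCs and at 431.5 and 441.0 in shSrf NPCs. The 4 libraries were close together, and the knockdown log2 ratios were 0.01 on the soft matrix and 0.04 on the stiff matrix (counting SE 0.020 for each). B2m transcripts have a lower GC content (41.2%) than those of the other 8 genes with a value (55.3% to 57.3%), and with the same centring B2m was at 0.17 and 0.29, past 1.1-fold.

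The subunits of the transporter moved apart. Tap1 was at 3.49 and 3.86 FPKM in control NPCs and at 4.13 and 4.92 in shSrf NPCs, higher after knockdown by a log2 ratio of 0.24 (counting SE 0.11) and 0.35 (0.11). Tap2 was at 17.4 and 14.1 FPKM in control NPCs and at 9.21 and 10.5 in shSrf NPCs, lower by −0.92 (0.053) at 0.5 kPa and by −0.42 (0.054) at 12 kPa. TAP works as a heterodimer of both, and the FPKM of Tap2 was 4.98 and 3.64 times that of Tap1 in control NPCs and 2.23 and 2.13 times after knockdown. With GC content centred, the ratio of Tap1 was 0.11 and 0.12, within 1.1-fold.

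Tapbp, the bridge between TAP and an empty class I molecule, was at 382.9 and 361.2 FPKM in control NPCs and at 332.6 and 358.7 in shSrf NPCs. Its log2 ratio was −0.20 (counting SE 0.012) at 0.5 kPa and −0.01 (0.012) at 12 kPa, where the value centred for GC content was −0.24. Of 5 further genes of peptide loading and trimming, 4 were lower on both matrices and 1 was higher (median −0.26 and −0.37), against 28.8% and 30.3% of all genes. The lower genes were the chaperones Calr (−0.18 and −0.37) and Canx (−0.26 and −0.43), the disulfide isomerase Pdia3 (−0.26 and −0.17) and the trimming peptidase Erap1 (−0.58 and −0.52). The higher was the peptide editor Tapbpl, at 14.7 and 15.1 FPKM in control NPCs and 21.6 and 21.7 in shSrf NPCs (0.56 and 0.53).

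The 3 immunoproteasome subunits lay at very different levels. Psmb10 was at 194.4 and 194.2 FPKM in control NPCs and at 223.9 and 238.6 in shSrf NPCs, higher by a log2 ratio of 0.20 (counting SE 0.023) and 0.30 (0.023). Psmb9 was at 4.09 and 5.93 FPKM in control NPCs and at 5.40 and 5.28 in shSrf NPCs, so its groups overlapped and its ratio changed sign, from 0.40 (0.15) at 0.5 kPa to −0.17 (0.14) at 12 kPa. Psmb8 was at 0.837 and 0.337 FPKM in control NPCs, an estimated 15.0 and 5.0 reads, and at 2.73 and 4.71 in shSrf NPCs, an estimated 75.6 and 180 reads. Both knockdown libraries were above both controls, by a log2 ratio of 1.70 (0.41) and 3.80 (0.65), which was 1.02 and 2.09 when 1 was added to each FPKM. For Psmb10 at 0.5 kPa, the value centred for GC content was 0.13, within 1.1-fold.

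Set against the constitutive subunit that each replaces, Psmb8 was at 1.04% and 0.443% of Psmb5 in control NPCs and at 3.31% and 5.23% in shSrf NPCs. Psmb9 was at 1.17% and 1.81% of Psmb6 in control NPCs and at 1.36% and 1.30% after knockdown, with no separation of the groups. Psmb10 was about level with Psmb7, at 102.2% and 104.3% in control NPCs and at 105.1% and 114% after knockdown. Psmb10 alone was thus at the level of its counterpart.

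**Figure D4:**
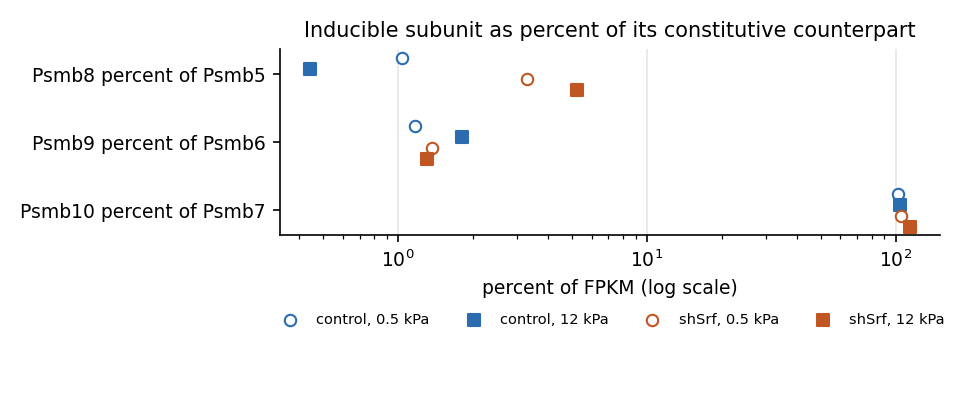
FPKM of each immunoproteasome subunit as a percent (log axis) of its constitutive counterpart in the 4 libraries: Psmb8 of Psmb5, Psmb9 of Psmb6 and Psmb10 of Psmb7. Psmb10 lies near 100% in each library, and Psmb8 and Psmb9 lie at or under 5.23%.

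Of the 3 constitutive catalytic subunits, Psmb6 (log2 ratio 0.18 and 0.31) and Psmb7 (0.16 and 0.17) were higher on both matrices, and Psmb5 was at 0.03 and 0.24. Among 11 other subunits of the proteasome core, 3 were higher on both matrices (Psmb1, Psmb2, Psmb3) and none was lower (median 0.17 and 0.09), a share near the 30.3% of all genes that were higher. Of the activator that opens the core, 3 of 3 genes were lower on both matrices (median −0.57 and −0.67), where 28.8% of all genes were. Psme1, which with Psme2 forms the interferon-inducible activator, was at 409.3 and 439.3 FPKM in control NPCs and at 263.1 and 267.5 in shSrf NPCs (−0.64 and −0.72). Psme2 had ratios of −0.25 and −0.37, and Psme3, a nuclear activator subunit, −0.57 and −0.67.

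Nlrc5 was at 0.309 and 0.348 FPKM in control NPCs and at 0.686 and 0.741 in shSrf NPCs, under the minimum in all 4. Both shSrf libraries were above both control libraries, with a log2 ratio of 1.15 and 1.09, for which no read estimate was made. The share of all genes that separate this way was not counted, here or for H2-K1, Psmb8, H2-Q4 and H2-T23. The libraries of each kind differ in stiffness and are not replicates. Of 14 further factors that act on class I promoters, 12 were above the minimum, of which 6 were higher and 1 was lower on both matrices (median 0.22 and 0.28), against 30.3% and 28.8% of all genes. Irf1, an interferon-induced factor, was at 109.5 and 103.0 FPKM in control NPCs and at 120.3 and 126.1 after knockdown, with ratios of 0.14, just within 1.1-fold, and 0.29. Of the RFX complex, which binds the X box, Rfxap was at 0.68 and 0.59 and Rfxank at 0.54 and 0.65. Rfx5 was at −0.18 and 0.15 (counting SE 0.12 for each). Ciita, the class II transactivator, had under 1 estimated read in every library.

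Of 7 interferon receptor and receptor kinase genes, none was higher and 4 were lower on both matrices, against 30.3% and 28.8% of all genes. Among the 4 were the kinases Jak1 (−0.61 and −0.69) and Jak2 (−0.53 and −0.67) and the receptor chain Ifnar2 (−0.23 and −0.28). Of 5 interferon genes, none reached 2 FPKM and 3 were listed at 0 in all libraries, and their summed level was between 0 and 0.125 FPKM. Of 7 genes of class II presentation, which serves professional antigen-presenting cells, none was above the minimum in all libraries. H2-DMa was at 2.21 and 3.23 FPKM in control NPCs and at 1.48 and 1.18 after knockdown, and H2-DMb1 and Cd74 were under 2 FPKM in every library. The summed level of the 7 was 3.80 and 4.25 FPKM in control NPCs and 3.02 and 2.96 after knockdown.

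Markers of cells that could have been mixed in were read beside these differences. Of 11 leukocyte and microglia markers with a value, Cd68 alone was above 2 FPKM in each control library, and Cd68 and Laptm5 in each shSrf library. Their sum was 5.57 and 5.56 FPKM in control NPCs and 9.08 and 8.35 after knockdown, and without Cd68 and Laptm5 0.247 and 0.603 against 0.166 and 0.816. Laptm5 was at 0.242 and 0.317 FPKM in control NPCs and at 2.25 and 2.18 after knockdown, and Cd68 at 5.08 and 4.64 against 6.665 and 5.355. Fcer1g, at 0.145 and 0.347 against 0.0938 and 0.519, did not separate the groups. Tyrobp and Cd3e were listed at 0 in all libraries, and Ptprc had at most 0.02 FPKM. Of 6 endothelial markers, Emcn was above 2 FPKM, in the shSrf libraries (5.29 and 4.92), and the sum was 1.38 and 1.48 in control NPCs and 6.06 and 6.0 after knockdown, and without Emcn 0.570 and 0.641 against 0.777 and 1.08. The part of such cells, and of the higher depth of both knockdown libraries, in the members higher after knockdown was not tested.

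To compare the matrices, 12 kPa was set against 0.5 kPa within control and within shSrf NPCs. In control NPCs, 2 of the 8 genes were higher at 12 kPa (Tap1, Psmb9), where 17.9% of all genes were, and 1 was lower (Tap2; 16.9%). In shSrf NPCs, 2 were higher (Tap1, Tap2; 17.6%) and 0 were lower (13.0%). Both stiffness comparisons share a library with each knockdown comparison, so their values are not independent of those above. The median log2 ratio of the 8 was 0.00 in control and 0.10 in shSrf NPCs, against 0.003 and 0.006 over all genes. With GC content centred, the median of the 8 in shSrf NPCs was 0.057.

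**Figure D5:**
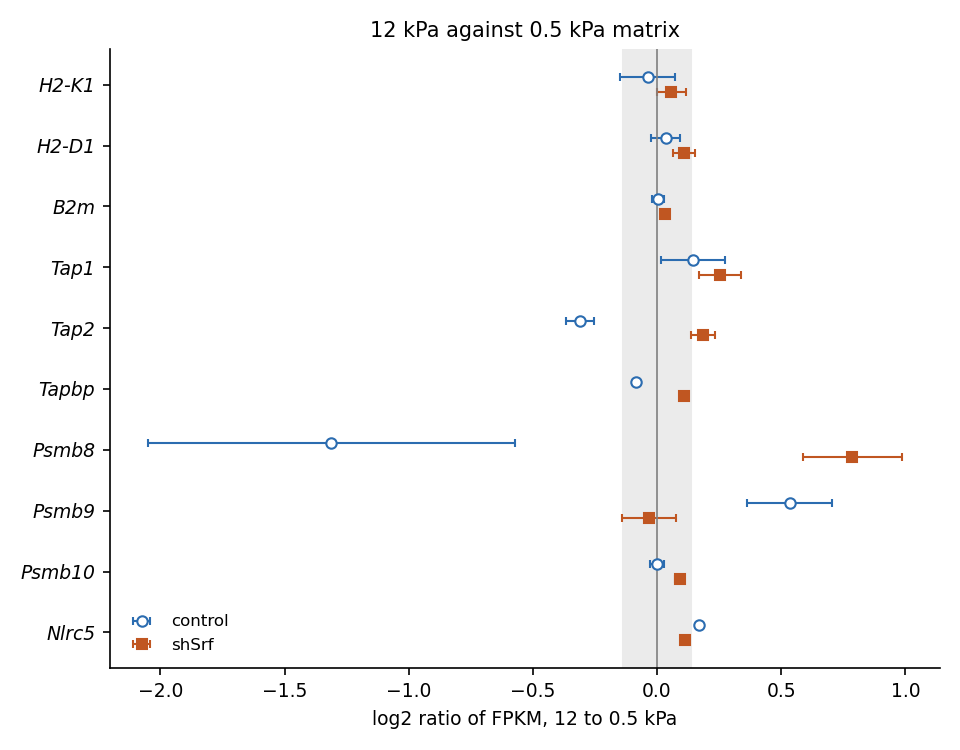
Log2 ratio of FPKM, 12 over 0.5 kPa, for each gene in control and in shSrf NPCs. Bars show ±1 SE from counting error only (none for Nlrc5), and the grey band marks ratios within 1.1-fold. Tap1 lies above the band in each kind of NPC, and Tap2 and Psmb8 lie on opposite sides of 0 in control and shSrf NPCs.

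The stiffness ratio of Tap1 was 0.14 (counting SE 0.13) in control and 0.25 (0.086) in shSrf NPCs. Of the 8, Tap1 alone was higher past 1.1-fold in both, although the value in control was close to its counting SE. Psmb9 had a ratio of 0.53 (0.17) in control and −0.03 (0.11) in shSrf NPCs. Tap2 had a ratio of −0.31 (0.056) in control and 0.19 (0.050) in shSrf NPCs, past 1.1-fold in both but opposite in sign. The heavy and light chains varied little with stiffness. H2-K1 was at −0.04 and 0.06, H2-D1 at 0.03 and 0.11, and B2m at 0.00 and 0.03. Tapbp was at −0.08 and 0.11 and Psmb10 at 0.00 and 0.09, all within 1.1-fold. With 1 added to each FPKM, Tap1 in control was at 0.11, and with GC content centred, Tap2 in shSrf NPCs was at 0.13, each within 1.1-fold.

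The genes outside all lists whose centred log2 profile over the 4 libraries lay closest to the median profile of the 8 were Fbxo42, Iqgap3, Crkl, Nfrkb and Gng12, at Euclidean distances of 0.0141 to 0.0213 on the log2 scale. The median profile is nearly flat, so these are genes with little difference between the libraries.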

How the data were processed

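RNA from N31 NPCs was sequenced in 4 conditions of 1 library each. Per the labels and the methods of the study, libraries were made with the TruSeq Stranded mRNA kit and sequenced as single-end reads, and the submitters' processing notes name cutadapt 1.9.1, TopHat2 2.1.0, Bowtie2 2.2.8 and Cufflinks 2.2.1, with the build mm10. Reads with a mapping quality under 20 were removed and GENCODE M14 gave the genes. The strand setting of the counting is not given in the sources used here. The authors deposited the resulting FPKM values per gene, 1 file per library, without read counts.

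Rows whose symbol occurred more than once (63 symbols) were left out, and 21862 genes remained. Ratios were formed on FPKM without a pseudocount. Counts past 1.1-fold and medians were taken over genes above 2 FPKM in all libraries (10489). With 1 library a condition there was no test and no p-value. Depth was estimated from the smallest steps of low FPKM values (2950 values below 0.1), and reads per gene from the shortest transcript over 800 nt. Intervals from them cover counting error only. FPKM is a share of each library, so a large change in abundant genes can move the others. Python 3.11.15, numpy 2.4.6, pandas 2.3.3 and matplotlib 3.10.9 were used, and the scripts were tested on simulated data. The genes named were all members, Srf, the constitutive catalytic subunits, the PA28 genes, the loading partners, Irf1 and Rfx5. Up to 3 genes of each other list were added, by the largest absolute mean of both knockdown log2 ratios. The 5 genes of the most similar profile were also named. The markers, Fcgrt, and the heavy chains H2-T22, H2-M3 and H2-Q7 were named beyond this rule, after their values were seen, and some genes of the lists are not reported here. The members and lists were chosen with earlier results of these data known. Alternatives were other fold thresholds and minimums, a pseudocount of 1, centring on the median, scaling to the 75th percentile and centring within 50 GC bins. Of the members, 9 have a transcript of known GC content.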

Additional observations from a re-analysis of the deposited data

Results flagged for a closer look

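Some genes had log2 ratios of opposite sign in the compared conditions, each past 1.1-fold. With 1 library per condition, none of these differences was tested. In the response to 12 over 0.5 kPa, control and shSrf NPCs differed by 0.49 for Tap2 (−0.31 and 0.19) and by 2.099 for Psmb8 (−1.31 and 0.79), where the control value of Psmb8 rests on an estimated 15.0 and 5.0 reads. In the response to Srf knockdown, 0.5 and 12 kPa differed by −0.57 for Psmb9 (0.40 and −0.17).

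Rfx5, a subunit of the X box complex, differed by 0.33 in the response to stiffness (−0.19 in control and 0.14 in shSrf NPCs) and, since the 4 libraries are the same, by 0.33 in the response to knockdown (−0.18 and 0.15). The counting SE of Rfx5 was 0.14 and 0.1 for stiffness and 0.12 and 0.12 for knockdown, so its ratios were not far above their counting SE. Among the class II genes, H2-DMa differed by −0.87 in the response to stiffness (0.55 and −0.33), and Cd74, the invariant chain, differed by 1.00 in both (−0.73 and 0.28 for stiffness, −0.15 and 0.85 for knockdown). Cd74 was under 2 FPKM in all 4 libraries, and H2-DMa was at most at 3.23. The counting SE of Cd74 was 0.37 and 0.23 for stiffness and 0.28 and 0.34 for knockdown. For H2-DMa it was 0.21 and 0.21 for stiffness.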

How the results depend on the processing

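No paired analysis was possible because no condition had a second library. For the same reason the differences have no replicate error, the read estimates give counting error only, and low genes such as Psmb8 and Nlrc5 are limited by depth. Of 156 values of single members under an alternative, 146 kept their side of 1.1-fold, 10 changed it and 0 of the ratios past 1.1-fold changed sign. Within 1.1-fold, 4 values of B2m and Psmb10 changed sign, with sizes of at most 0.012. The 10 are given beside the genes, except Nlrc5 in the stiffness response of control NPCs (0.04 with a pseudocount of 1). The knockdown ratio of H2-K1 was between 0.82 and 0.99 in all of them.

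At 0.5 kPa, the count of members higher after knockdown was 1 past 1.5-fold, 0 past 2-fold and 2 with a minimum of 5 FPKM, and the count lower was 1 past 1.5-fold and 0 past 2-fold. The median log2 ratio was −0.091 with a minimum of 5 FPKM and 0.22 with no minimum. At 12 kPa, the count higher was 1 past 1.5-fold, 0 past 2-fold and 5 with no minimum, the count lower was 0 past 1.5-fold, 0 past 2-fold, 1 with a minimum of 5 FPKM and 4 when centred within GC bins, an alternative chosen after seeing the data for these counts, and the median was 0.17 with no minimum. For stiffness in control NPCs, the count higher was 0 past 1.5-fold, past 2-fold and with a minimum of 5 FPKM, and 1 with a pseudocount of 1, and the count lower was 0 past 1.5-fold and 2-fold and 2 with no minimum. For stiffness in shSrf NPCs, the count higher was 0 past 1.5-fold and 2-fold, 1 with a minimum of 5 FPKM and 1 when centred within GC bins. Higher thresholds and minimums admit fewer genes by construction, and the cause of the shift with GC content was not tested.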

Other observations

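Fcgrt, the neonatal Fc receptor and a class I-like chain that also pairs with β2-microglobulin, was at 25.1 and 32.5 FPKM in control NPCs at 0.5 and 12 kPa and at 41.8 and 44.6 in shSrf NPCs, a log2 ratio of 0.73 and 0.46. H2-T22, a T-region heavy chain with 44.2% of its 50-base stretches shared with other genes, was at 20.1 and 21.4 FPKM in control NPCs and at 25.0 and 26.4 after knockdown (0.32 and 0.30). H2-M3, which presents formylated peptides, was at 6.13 and 6.83 FPKM against 6.58 and 6.74, ratios of 0.10 and −0.02. H2-Q7 was at 0.52 and 0.58 FPKM in control NPCs, an estimated 18.3 and 16.8 reads, and at 0.76 and 1.12 after knockdown. Its ratios were 0.54 (counting SE 0.41) and 0.95 (0.39), and 27% of its 50-base stretches are shared with other genes. These genes were chosen after their values were seen.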
